A study of Mus musculus with 12 samples.

Results

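Proliferation and DNA replication genes of mouse spinal cord are described here across injury and cell transplantation. They are 44 genes, of 46078 in the table, that act from the exit of a resting cell into the cycle to the end of mitosis, and each was found by its symbol. Bulk RNA sequencing gave 12 libraries in 4 groups of 3, all from spinal cord tissue of hosts of the strain C57BL6/cJ. The groups were spinal cord injury (SCI) with transplanted allogeneic mesenchymal stem cells (MSC, multipotent stromal cells, here from a donor that is not genetically matched), SCI with syngeneic MSC (from a matched donor), SCI alone, and non-injured cord. For SCI alone the labels name no control procedure for the transplantation. How long after injury the cord was taken, from how long a segment, from mice of which age and sex, and which strain donated the allogeneic cells, was not stated in the labels. RNA of any surviving transplanted cells is counted together with RNA of the host.

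Cells enter the division cycle when D and E cyclins activate kinases that free E2F transcription factors from the retinoblastoma family, and E2F factors then switch on genes for DNA synthesis. In S phase the MCM helicase opens DNA that was licensed earlier, and polymerases copy it with nucleotides whose supply is set up at the same time. A later set of genes, switched on in G2 by complexes that contain B-MYB and FOXM1, builds the spindle, the kinetochores and the ligase that ends mitosis. Most cells of the adult cord do not divide, whereas microglia, astrocytes, precursors of oligodendrocytes, ependymal and stromal cells are known to divide after an injury. In bulk tissue, fewer cells of a type and less RNA per cell cannot be told apart.

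Levels are given as CPM, counts scaled to a library of 1000000 with TMM factors, which align the libraries on genes that differ little. Differences are log2 fold changes with an approximate standard error (SE). It is the size of the log2 fold change divided by the square root of edgeR's F statistic. A gene is called higher or lower where its p-value in edgeR's quasi-likelihood test lies below 0.05 after Benjamini-Hochberg adjustment across 16527 tested genes. The 44 genes passed the filter on low counts. No label ties the 3 samples of a group to separate animals, so p-values reflect only the variation among samples, part of which may be technical. Titles are numbered, and each transplanted group has a range of numbers of its own, so any set of samples handled together cannot be told apart from the transplant.

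Total counts lay between 8705942, in allogeneic replicate 2, and 26151928, in non-injured replicate 1. The 44 genes took 0.0432% to 0.0688% of the counts of a library, so many of them rest on few reads. Summed over the 3 non-injured libraries, 11 had under 50 counts, with 7 for Aurkb as the lowest. Exons of 14 of the 44 genes share bases with another gene, and whether reads were counted by strand is not stated. Their counts may hold reads of the neighbour: the largest shared parts were 29.3% of the exonic length of Kif20a (with Cdc23), 23.4% of Ccnd1 (with LTO1), 22.8% of Ube2c (with Tnnc2), 17.4% of Ccne2 (with Ints8), 12.5% of Ccna2 (with Exosc9) and 11.1% of Prc1 (with Rccd1). The 8 others, Foxm1, Mcm7, Cdc45, Tk1, Top2a, Plk1, Nusap1 and Cdc20, share less. Within the groups, libraries correlated across genes with r between 0.971 and 0.991, and no pair was identical. Mitochondrial transcripts took 5% to 6.4% of counts in 8 of the 9 injured libraries and 8.8% in syngeneic replicate 2, against 7.46% to 10.9% in non-injured cord. Syngeneic replicate 2 was also the lowest of its group in 27 of the 44 genes, and the part of this share in the results was not tested. Markers of neurons, myelin, astrocytes and microglia were detected in every library.

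The clearest difference lay between the injured groups and the non-injured cord. With SCI alone, 32 of the 44 genes were called higher than in non-injured cord (72.7%, against 16.6% of all genes tested), and 1 gene, Ccne1, was called lower (9.26% of all genes tested were). The median log2 fold change of the 44 genes was 1.37, against 0.01 over all genes tested. In 35 of the 44 genes, each SCI library lay above each non-injured library, which held for 26.3% of all genes tested. With allogeneic MSC, 31 genes were called higher than in non-injured cord (16.7% of all genes tested) and 1, again Ccne1, lower (8.17%), with a median of 1.36. With syngeneic MSC, 19 were called higher (4.92% of all genes tested) and 0 lower (0.424%), with a median of 0.88. For that 0, 0 were called lower by the DESeq2 Wald test and by limma-voom, while 29 of the 44 genes had an unadjusted p below 0.05 in either direction. The 19 called higher were Foxm1, Mcm3, Mcm4, Rrm2, Uhrf1, Top2a, Cdk1, Ccna2, Ccnb1, Ccnb2, Bub1, Aurkb, Kif11, Prc1, Nusap1, Cenpf, Mki67, Ube2c and Cdc20. These comparisons share the non-injured libraries, so their counts are not independent of each other. The shares of all genes tested given here also stand as the background for the counts by role below.

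**Figure D1:**
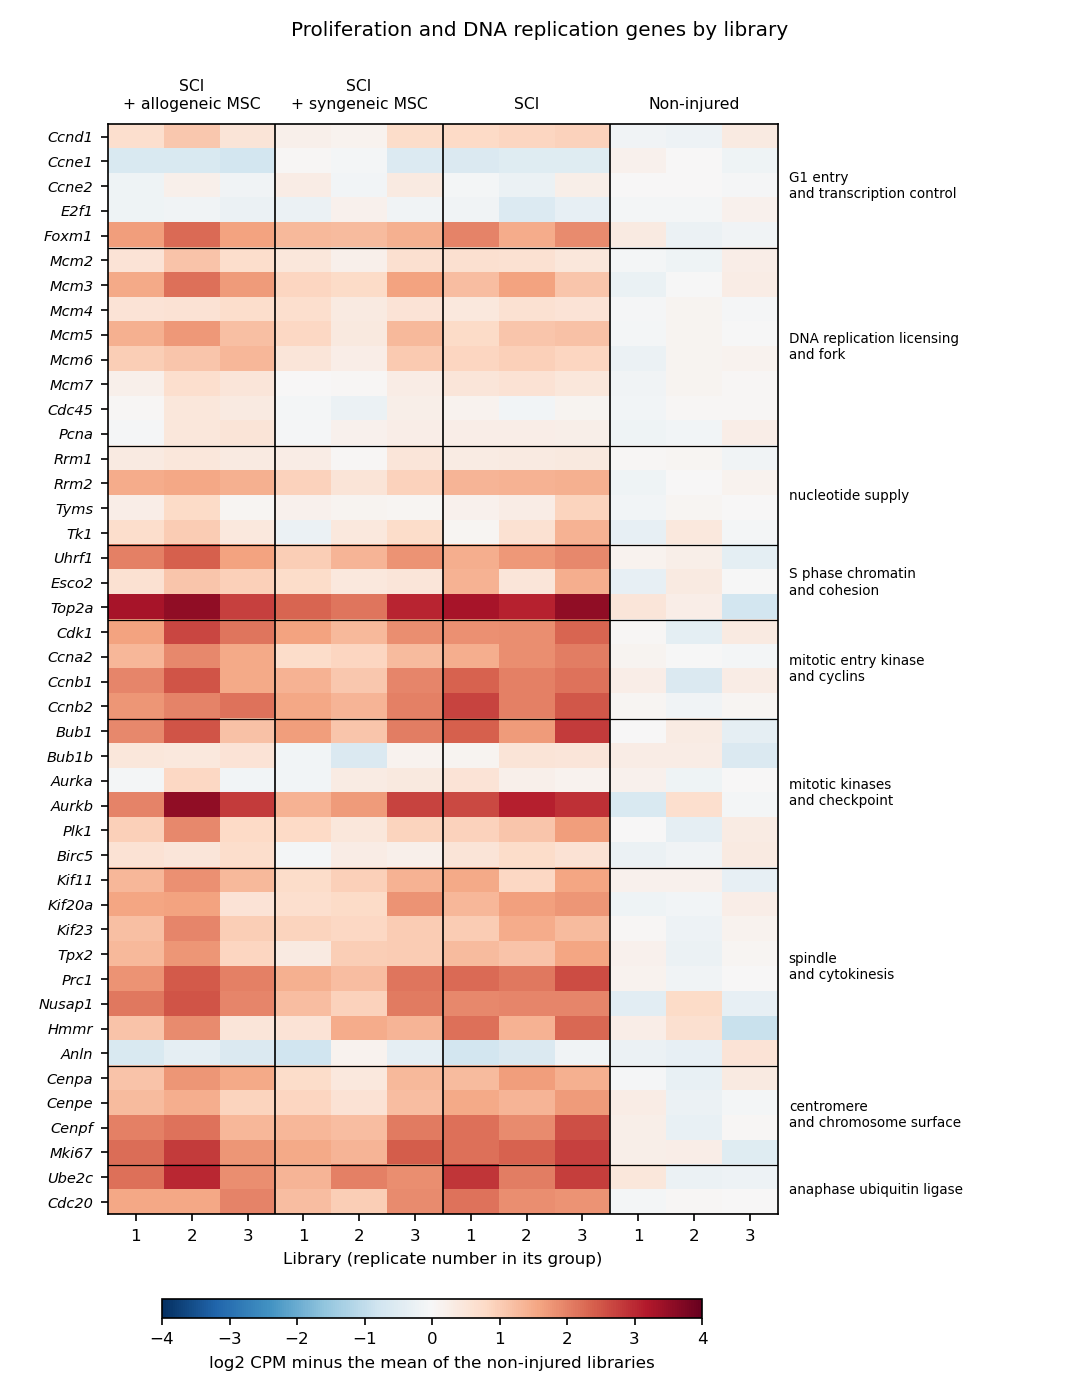
Heat map of the 44 genes (rows, in the order of their roles) in 12 libraries (columns), as log2 CPM minus the mean of the 3 non-injured libraries, red for above and blue for below. Rows from Foxm1 down are mostly red in the 9 injured libraries, while Ccne1, Ccne2, E2f1 and Anln are pale or blue.

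**Figure D2:**
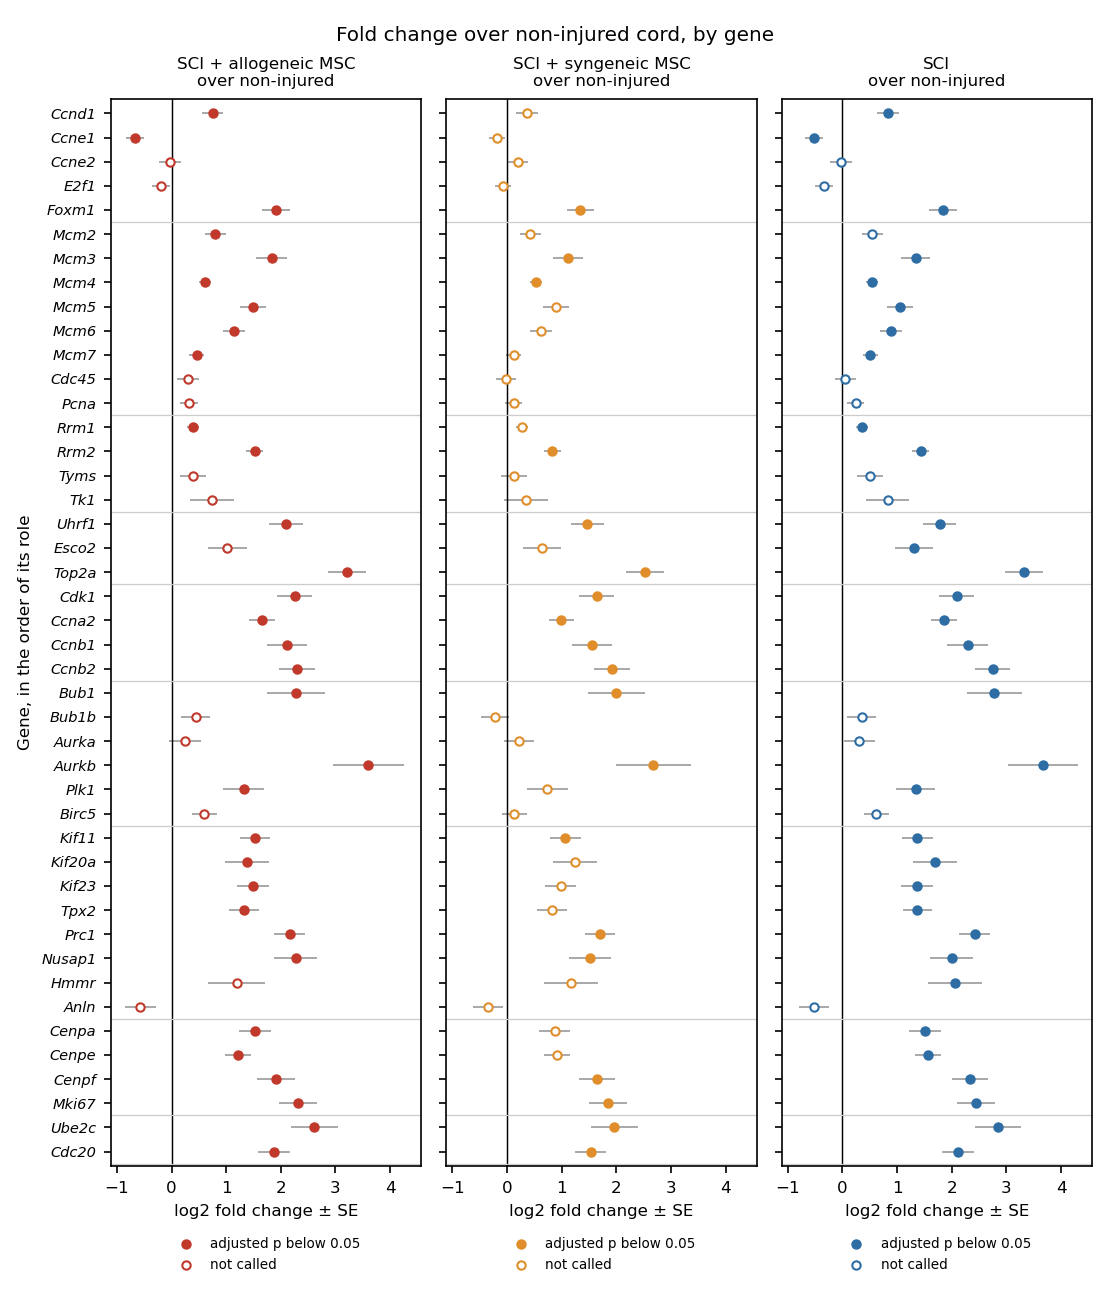
Log2 fold change over non-injured cord (horizontal axis, bars for the SE) of each gene with allogeneic MSC, with syngeneic MSC and with SCI alone, filled where the adjusted p lies below 0.05. Filled points number 32 with allogeneic MSC, 19 with syngeneic MSC and 33 with SCI alone, and the points farthest to the right are Aurkb and Top2a in each panel.

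The members differ in the regulatory letters around their start, and those sequences are shown as a description of genes of different phases. RefSeq promoters (GRCm38.p6, 300 bases, from 250 before the annotated start to 50 after it) were matched for 35 of the 44 genes by symbol. Not matched were Aurkb, Kif20a, Ccne2, Foxm1, Ccnd1, Mcm4, Ccna2, Tpx2 and Esco2. The motifs searched were the cell cycle genes homology region, or CHR (TTTGAA or TTTAAA), the CCAAT box (CCAAT), and the E2F site (TTTCCCGC, TTTCGCGC, TTTGCCGC or TTTGGCGC), each on both strands. As background, the CHR and the CCAAT box are known from promoters of mitotic genes, and the E2F site from promoters of DNA synthesis genes. A CHR was found in 18 of the 20 promoters of mitotic members (90%) and in 7 of 15 of the G1, replication, nucleotide and S phase members (46.7%). The share was 27.8% among the 27025 promoters of the table and 19.4% among those of the genes tested. A CCAAT box was found in 17 of 20 (85%) and 11 of 15 (73.3%), against 37.9% of the table and 38.2% of the genes tested. Both motifs stood together in 16 of the 20 mitotic promoters (80%), against 10.9% of the table and 7.7% of the genes tested. The E2F letters were found in 1 of the 20 mitotic promoters (5%) and in 4 of the 15 others (26.7%), against 2.32% of the table and 3.88% of the genes tested. With 1 promoter, the mitotic share lies near that of the genes tested. These matches describe the letters and were not tested against the measurements. The promoters of 7 members are printed 5′ to 3′ on the strand of the gene, with the matched motifs in capitals. They are a pair of helicase subunits with E2F letters, 3 genes of chromosome separation and mitotic entry that rose with injury, and Ccne1 and Anln, which did not.
Mcm3, chr1:20820263-20820562, minus strand: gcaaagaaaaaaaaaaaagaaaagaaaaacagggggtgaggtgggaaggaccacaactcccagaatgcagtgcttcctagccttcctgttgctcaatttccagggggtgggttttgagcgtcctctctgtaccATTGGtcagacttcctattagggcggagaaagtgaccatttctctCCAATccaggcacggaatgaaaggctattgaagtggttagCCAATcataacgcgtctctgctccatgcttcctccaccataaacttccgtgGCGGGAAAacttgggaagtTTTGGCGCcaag
Mcm6, chr1:128359656-128359955, minus strand: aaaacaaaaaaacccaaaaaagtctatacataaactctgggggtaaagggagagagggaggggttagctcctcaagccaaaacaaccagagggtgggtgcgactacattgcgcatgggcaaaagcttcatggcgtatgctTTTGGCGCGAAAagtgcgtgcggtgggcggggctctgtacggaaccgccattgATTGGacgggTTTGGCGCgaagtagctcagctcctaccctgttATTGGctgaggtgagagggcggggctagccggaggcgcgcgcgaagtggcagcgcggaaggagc
Top2a, chr11:99024140-99024439, minus strand: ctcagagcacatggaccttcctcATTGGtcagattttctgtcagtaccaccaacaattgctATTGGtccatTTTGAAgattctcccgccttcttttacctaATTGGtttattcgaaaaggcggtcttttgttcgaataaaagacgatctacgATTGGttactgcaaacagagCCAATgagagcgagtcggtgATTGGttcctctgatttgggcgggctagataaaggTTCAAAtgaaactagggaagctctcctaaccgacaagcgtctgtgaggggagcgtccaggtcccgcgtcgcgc
Cdk1, chr10:69352863-69353162, minus strand: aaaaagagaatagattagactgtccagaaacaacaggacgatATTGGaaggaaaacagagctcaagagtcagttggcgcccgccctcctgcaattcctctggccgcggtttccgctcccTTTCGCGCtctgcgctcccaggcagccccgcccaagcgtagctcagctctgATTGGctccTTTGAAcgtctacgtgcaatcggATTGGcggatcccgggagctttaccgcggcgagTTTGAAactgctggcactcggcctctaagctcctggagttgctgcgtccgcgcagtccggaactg
Ccnb2, chr9:70421505-70421804, minus strand: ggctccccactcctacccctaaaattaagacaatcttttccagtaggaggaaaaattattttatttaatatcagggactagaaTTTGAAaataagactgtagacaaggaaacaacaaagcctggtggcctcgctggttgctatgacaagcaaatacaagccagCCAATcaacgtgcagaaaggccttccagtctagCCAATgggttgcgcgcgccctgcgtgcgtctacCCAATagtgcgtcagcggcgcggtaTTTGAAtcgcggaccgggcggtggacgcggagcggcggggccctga
Ccne1, chr7:38107441-38107740, minus strand: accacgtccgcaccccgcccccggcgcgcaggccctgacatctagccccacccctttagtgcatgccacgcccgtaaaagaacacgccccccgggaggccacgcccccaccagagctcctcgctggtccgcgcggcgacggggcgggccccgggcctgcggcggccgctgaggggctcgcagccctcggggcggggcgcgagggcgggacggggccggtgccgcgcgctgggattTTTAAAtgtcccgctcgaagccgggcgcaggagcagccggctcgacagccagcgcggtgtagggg
Anln, chr9:22389157-22389456, minus strand: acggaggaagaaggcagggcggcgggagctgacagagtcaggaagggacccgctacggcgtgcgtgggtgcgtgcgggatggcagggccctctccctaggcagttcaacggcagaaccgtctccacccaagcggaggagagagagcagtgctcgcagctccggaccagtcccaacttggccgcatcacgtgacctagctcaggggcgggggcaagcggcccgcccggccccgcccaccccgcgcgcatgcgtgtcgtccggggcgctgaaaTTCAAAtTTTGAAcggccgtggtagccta
The nearest CHR begins 15 bases before the start in Cdk1, with CCAAT boxes 48, 80 and 208 bases and E2F letters 131 bases before the start, and 23 bases before the start in Top2a, whose promoter holds 6 CCAAT boxes. Ccnb2 has CCAAT boxes 21, 54 and 87 bases before its start, a CHR 4 bases after it and another 167 bases before it. Mcm6 has E2F letters 47, 106 and 110 bases before its start, the farther pair sharing 4 bases, and neither Mcm6 nor Mcm3 has a CHR in the window. Of the other helicase subunits with a matched promoter, Mcm2 and Mcm5 each hold 1 CHR and Mcm7 holds none. Ccne1 and Anln hold a CHR but no CCAAT box and no E2F letters in these windows. Other members go both ways. Nusap1 holds none of these motifs and was called higher with SCI alone. Birc5, E2f1, Tk1 and Tyms hold no CCAAT box and were not called there. Aurka, Bub1b, Cdc45, Mcm2 and Pcna hold a CCAAT box and were not called either. Whether the motifs go with the change after injury was not tested.

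Genes of G1 control moved in different directions. The D cyclin Ccnd1 and the mitotic transcription factor Foxm1 rose with injury, the E cyclin Ccne1 was lower, and Ccne2 and E2f1 did not pass the test. Ccnd1, the cyclin that links growth signals to the cycle, had 83.2, 112 and 75.1 CPM with allogeneic MSC, 60.8, 58 and 87.3 CPM with syngeneic MSC and 91.2, 95.6 and 99.3 CPM with SCI alone, against 47.7, 45.7 and 67 CPM in non-injured cord. Libraries of allogeneic MSC and of SCI alone lay above all 3 non-injured ones, whereas syngeneic replicates 1 and 2 lay within the non-injured range. Its log2 fold change over non-injured cord was 0.75 (SE 0.2, adjusted p = 0.0181) with allogeneic MSC and 0.36 (SE 0.2) with syngeneic MSC, and 0.83 (SE 0.2, adjusted p = 0.0109) with SCI alone. The call with allogeneic MSC was lost without allogeneic replicate 2 (0.57, adjusted p = 0.0821) and without non-injured replicate 1 (0.67, adjusted p = 0.0717) or 2 (0.65, adjusted p = 0.0677). Foxm1, which drives transcription of G2 and mitotic genes, had 4.28, 6.54 and 4.11 CPM in the allogeneic MSC libraries, 3.23, 3.19 and 3.53 CPM in the syngeneic MSC libraries, 5.33, 3.73 and 4.99 CPM in the SCI libraries and 1.66, 1.06 and 1.13 CPM in the non-injured libraries. No injured library reached down to the non-injured range, and the syngeneic libraries lay below all libraries of both other injured groups. With SCI alone the log2 fold change of 1.84 (SE 0.25, adjusted p = 0.000557) was the largest of the 5 genes of this group, beside 1.91 (SE 0.26, adjusted p = 0.000356) with allogeneic MSC and 1.34 (SE 0.25) with syngeneic MSC.

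Ccne1, whose protein activates CDK2 at the start of S phase, had 9.66, 9.59 and 8.81 CPM with allogeneic MSC, 15.2, 14 and 9.96 CPM with syngeneic MSC and 9.93, 10.7 and 10.4 CPM with SCI alone, against 16.5, 15.1 and 13 CPM in non-injured cord. Libraries of allogeneic MSC and of SCI alone lay below every non-injured library, while syngeneic replicates 1 and 2 lay within the non-injured range and replicate 3 lay among the SCI libraries. The log2 fold change of Ccne1 was -0.67 (SE 0.16, adjusted p = 0.0101) with allogeneic MSC and -0.18 (SE 0.15) with syngeneic MSC, and -0.52 (SE 0.16, adjusted p = 0.0305) with SCI alone. With SCI alone the call was lost in 6 of 18 alternatives, among them library totals alone (-0.46, adjusted p = 0.0642). It was also lost without SCI replicate 1 (-0.49, adjusted p = 0.0909), 2 (-0.54, adjusted p = 0.0809) or 3 (-0.52, adjusted p = 0.0837), and without non-injured replicate 1 (-0.44, adjusted p = 0.11) or 2 (-0.51, adjusted p = 0.0715). The call with allogeneic MSC was lost in none of its 18. E2f1, an activating E2F factor, had 8.82, 9.14 and 8.35 CPM in the allogeneic MSC libraries, 8.39, 11.2 and 9.06 CPM in the syngeneic MSC libraries, 9.07, 6.81 and 7.88 CPM in the SCI libraries and 9.35, 9.37 and 11.3 CPM in the non-injured libraries. The SCI and allogeneic libraries lay below the non-injured ones by small margins, and no difference passed the test. The log2 fold changes were -0.19 (SE 0.16, adjusted p = 0.395) with allogeneic MSC, -0.07 (SE 0.15) with syngeneic MSC and -0.34 (SE 0.16, adjusted p = 0.132) with SCI alone. Ccne2, the second E cyclin, had log2 fold changes of -0.03 (SE 0.2), 0.20 (SE 0.19) and -0.02 (SE 0.2) in the same order, and the sign with SCI alone turned in 3 alternatives.

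Of the 8 genes of the replication fork, 5 were called higher with SCI alone, at a median log2 fold change of 0.55. With allogeneic MSC 6 were, at a median of 0.71. Over all genes tested the shares called higher were 16.6% and 16.7%. The 6 subunits of the MCM helicase, which unwinds DNA ahead of the polymerases, moved by unequal amounts. Mcm3, with the largest change of the 6 with SCI alone, had 11.5, 18.5 and 13.1 CPM with allogeneic MSC, 7.21, 6.78 and 12.4 CPM with syngeneic MSC and 9.5, 12.3 and 8.73 CPM with SCI alone, against 3.25, 3.94 and 4.87 CPM in non-injured cord. Each injured library lay above the non-injured range, with allogeneic replicate 2 the highest. Over non-injured cord Mcm3 had log2 fold changes of 1.83 (SE 0.28, adjusted p = 0.00071) with allogeneic MSC and 1.12 (SE 0.27) with syngeneic MSC, and 1.34 (SE 0.27, adjusted p = 0.00484) with SCI alone. Mcm5 had 8.04, 10 and 6.87 CPM in the allogeneic MSC libraries, 5.29, 3.88 and 7.32 CPM in the syngeneic MSC libraries, 5.02, 6.42 and 6.75 CPM in the SCI libraries and 2.74, 3.19 and 2.87 CPM in the non-injured libraries. Again no injured library overlapped the non-injured ones, and the allogeneic libraries lay above all SCI libraries. Against non-injured cord, Mcm5 had log2 fold changes of 1.49 (SE 0.24, adjusted p = 0.00111) with allogeneic MSC and 0.90 (SE 0.24) with syngeneic MSC, and 1.05 (SE 0.24, adjusted p = 0.00895) with SCI alone. The syngeneic value of Mcm5 was not called (edgeR adjusted p = 0.0532). Mcm2 had 8.88, 13.4 and 9.92 CPM with allogeneic MSC, 8.3, 6.94 and 9.57 CPM with syngeneic MSC and 9.44, 9.22 and 8.22 CPM with SCI alone, against 5.76, 5.31 and 7.23 CPM in non-injured cord. Syngeneic replicate 2 fell within the non-injured range and the other injured libraries lay above it. Mcm2 missed the threshold with SCI alone at 0.55 (SE 0.19, adjusted p = 0.0507). It was called with allogeneic MSC at 0.80 (SE 0.19, adjusted p = 0.0099), beside 0.43 (SE 0.19) with syngeneic MSC. In 9 of 18 alternatives it was called with SCI alone. Among them were the fits without allogeneic replicate 1 (0.55, adjusted p = 0.0442) or 2 (0.55, adjusted p = 0.0376), without syngeneic replicate 2 (0.55, adjusted p = 0.0449) or 3 (0.56, adjusted p = 0.0462) and without non-injured replicate 3 (0.68, adjusted p = 0.0379).

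Mcm4, Mcm6 and Mcm7 were called higher with SCI alone at 0.54 (SE 0.11, adjusted p = 0.00482), 0.89 (SE 0.2, adjusted p = 0.00795) and 0.51 (SE 0.14, adjusted p = 0.021). Mcm7 shares exonic bases with Cops6, Ap4m1, Mir25 and Mir93. Its call was lost without a filter on low counts (0.46, adjusted p = 0.0547), without SCI replicate 1 (0.53, adjusted p = 0.0505), 2 (0.47, adjusted p = 0.0858) or 3 (0.55, adjusted p = 0.0516), and without non-injured replicate 1 (0.44, adjusted p = 0.0829). Pcna, the sliding clamp of the polymerases, had 42.5, 59.9 and 63.2 CPM with allogeneic MSC, 41.7, 49 and 53.1 CPM with syngeneic MSC and 51.8, 53 and 51.7 CPM with SCI alone, against 38.7, 40.5 and 53.1 CPM in non-injured cord. The groups overlapped, since non-injured replicate 3 stood as high as the highest SCI and syngeneic libraries. The log2 fold changes of Pcna were 0.32 (SE 0.16, adjusted p = 0.171) with allogeneic MSC and 0.12 (SE 0.16) with syngeneic MSC, and 0.24 (SE 0.16, adjusted p = 0.3) with SCI alone. Cdc45, which joins the active helicase, had 2.85, 3.84 and 3.6 CPM in the allogeneic MSC libraries, 2.62, 2.33 and 3.28 CPM in the syngeneic MSC libraries, 3.06, 2.58 and 3 CPM in the SCI libraries and 2.59, 2.87 and 2.87 CPM in the non-injured libraries. It overlapped in every comparison with non-injured cord, with log2 fold changes of 0.30 (SE 0.2, adjusted p = 0.294) for allogeneic MSC, -0.02 (SE 0.19) for syngeneic MSC and 0.05 (SE 0.19, adjusted p = 0.87) for SCI alone.

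Of the 4 genes of nucleotide supply, the subunits of ribonucleotide reductase, Rrm1 and Rrm2, were called higher with SCI alone, while Tyms and Tk1 were not. Of all genes tested, 16.6% were called higher there. Rrm2, the subunit whose level follows S phase, had 7.2, 7.56 and 6.97 CPM with allogeneic MSC, 4.89, 3.68 and 4.88 CPM with syngeneic MSC and 6.62, 6.75 and 6.97 CPM with SCI alone, against 2.24, 2.56 and 2.77 CPM in non-injured cord. Its syngeneic libraries lay above every non-injured library and below every SCI and allogeneic library. Over non-injured cord the log2 fold change was 1.52 (SE 0.16, adjusted p = 0.000101) with allogeneic MSC and 0.83 (SE 0.16) with syngeneic MSC, and 1.43 (SE 0.16, adjusted p = 0.000209) with SCI alone. Rrm1 had 33.1, 35.2 and 32.7 CPM in the allogeneic MSC libraries, 31.5, 26.5 and 35.5 CPM in the syngeneic MSC libraries, 32.1, 32.9 and 34 CPM in the SCI libraries and 26.7, 27.3 and 23.2 CPM in the non-injured libraries. Its rise was small, and only syngeneic replicate 2 overlapped the non-injured range. The call with SCI alone at 0.36 (SE 0.11, adjusted p = 0.0367) was lost in 9 of 18 alternatives, with log2 fold changes between 0.27, without non-injured replicate 3, and 0.40, without non-injured replicate 2. The call was lost without allogeneic replicate 3 (adjusted p = 0.0528) or syngeneic replicate 1 (adjusted p = 0.0504). It was also lost without SCI replicate 1 (adjusted p = 0.0727), 2 (adjusted p = 0.0996) or 3 (adjusted p = 0.116), without non-injured replicate 1 (adjusted p = 0.072), 2 (adjusted p = 0.0543) or 3 (adjusted p = 0.127), and with no filter on low counts (adjusted p = 0.125). Tk1, a salvage kinase for thymidine, had 1.75, 2.26 and 1.43 CPM with allogeneic MSC, 0.874, 1.43 and 1.8 CPM with syngeneic MSC and 1.1, 1.65 and 2.89 CPM with SCI alone, against 0.812, 1.44 and 0.974 CPM in non-injured cord. These low levels overlapped, with a log2 fold change of 0.83 (SE 0.39, adjusted p = 0.144) with SCI alone. Tyms, which makes thymidylate, had a log2 fold change of 0.51 (SE 0.24, adjusted p = 0.137) with SCI alone.

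The 3 genes of S phase chromatin were called higher with SCI alone. Top2a, the topoisomerase that untangles sister chromatids, had 14.2, 16.9 and 9.46 CPM with allogeneic MSC, 7.12, 6.33 and 11.8 CPM with syngeneic MSC and 14.2, 12.2 and 16.8 CPM with SCI alone, against 1.89, 1.62 and 0.769 CPM in non-injured cord. The lowest injured library, syngeneic replicate 2, lay well above the highest non-injured one. The SCI level was 9.97 times the non-injured level in the fit, a log2 fold change of 3.32 (SE 0.35, adjusted p = 0.000161). The values were 3.21 (SE 0.35, adjusted p = 0.000116) with allogeneic MSC and 2.53 (SE 0.35) with syngeneic MSC. Uhrf1, which helps to copy DNA methylation after replication, had 4.47, 5.87 and 3.41 CPM in the allogeneic MSC libraries, 2.14, 2.82 and 3.92 CPM in the syngeneic MSC libraries, 3, 3.68 and 4.25 CPM in the SCI libraries and 1.16, 1.25 and 0.769 CPM in the non-injured libraries. The injured libraries again stood apart from the non-injured ones. Its log2 fold changes were 2.09 (SE 0.31, adjusted p = 0.000609) with allogeneic MSC and 1.47 (SE 0.3) with syngeneic MSC, and 1.78 (SE 0.3, adjusted p = 0.00187) with SCI alone. Esco2, an acetyltransferase that ties sister chromatids together, had 0.843, 1.24 and 1.11 CPM with allogeneic MSC, 0.918, 0.735 and 0.771 CPM with syngeneic MSC and 1.53, 0.769 and 1.59 CPM with SCI alone, against 0.387, 0.687 and 0.513 CPM in non-injured cord. Its injured libraries lay above the non-injured ones by a narrow margin. Esco2 was called with SCI alone at a log2 fold change of 1.31 (SE 0.34, adjusted p = 0.0167), and the call was lost without SCI replicate 1 (1.17, adjusted p = 0.0604) or 3 (1.15, adjusted p = 0.0696) and without non-injured replicate 1 (1.11, adjusted p = 0.0738). With allogeneic MSC it was 1.02 (SE 0.36, adjusted p = 0.0571), which was not called.

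The kinase and cyclins of mitotic entry were called higher than in non-injured cord with allogeneic MSC, with syngeneic MSC and with SCI alone, 4 of 4 in each. Over all genes tested the shares called higher were 16.7%, 4.92% and 16.6%. The median log2 fold changes of the 4 were 2.18 with allogeneic MSC, 1.60 with syngeneic MSC and 2.19 with SCI alone. With syngeneic MSC the call was lost in 4 of 18 alternatives for Cdk1, 9 for Ccna2, 10 for Ccnb1 and 1 for Ccnb2. With only the 2 groups compared, all 4 syngeneic calls were lost, and 1.03% of all genes tested were called higher. Cdk1, the kinase that starts mitosis, had 3.11, 6.54 and 4.47 CPM with allogeneic MSC, 3.06, 2.45 and 3.66 CPM with syngeneic MSC and 3.62, 3.68 and 5.16 CPM with SCI alone, against 0.966, 0.687 and 1.23 CPM in non-injured cord. No injured library overlapped the non-injured range. Cdk1 had log2 fold changes of 2.25 (SE 0.32, adjusted p = 0.000523) with allogeneic MSC and 1.64 (SE 0.32) with syngeneic MSC, and 2.09 (SE 0.32, adjusted p = 0.00098) with SCI alone. Ccnb1, a B cyclin that partners CDK1, had 2.33, 3.5 and 1.71 CPM in the allogeneic MSC libraries, 1.53, 1.23 and 2.31 CPM in the syngeneic MSC libraries, 3.12, 2.42 and 2.72 CPM in the SCI libraries and 0.657, 0.312 and 0.667 CPM in the non-injured libraries. Injured libraries stood above non-injured ones, with the syngeneic libraries below all SCI libraries. Ccnb1 had log2 fold changes of 2.11 (SE 0.37, adjusted p = 0.00186) with allogeneic MSC and 1.56 (SE 0.37) with syngeneic MSC, and 2.29 (SE 0.37, adjusted p = 0.0013) with SCI alone. Ccnb2, the other B cyclin, had 1.23, 1.47 and 1.66 CPM with allogeneic MSC, 1.05, 0.899 and 1.48 CPM with syngeneic MSC and 2.45, 1.48 and 2.1 CPM with SCI alone, against 0.309, 0.25 and 0.308 CPM in non-injured cord. Injured and non-injured libraries did not overlap. The log2 fold change of 2.75 (SE 0.32, adjusted p = 0.000222) was the largest of this group with SCI alone, beside 2.30 (SE 0.33, adjusted p = 0.000499) with allogeneic MSC and 1.92 (SE 0.33) with syngeneic MSC. Ccna2, the A cyclin of S phase and G2, had 4.54, 6.88 and 5.17 CPM in the allogeneic MSC libraries, 2.93, 3.23 and 4.24 CPM in the syngeneic MSC libraries, 4.9, 6.53 and 7.43 CPM in the SCI libraries and 1.86, 1.69 and 1.64 CPM in the non-injured libraries. The syngeneic libraries lay between the non-injured ones and those of both other injured groups without overlap. With SCI alone its log2 fold change of 1.86 (SE 0.23, adjusted p = 0.000315) was the smallest of this group, beside 1.66 (SE 0.24, adjusted p = 0.000483) with allogeneic MSC and 0.99 (SE 0.23) with syngeneic MSC.

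**Figure D3:**
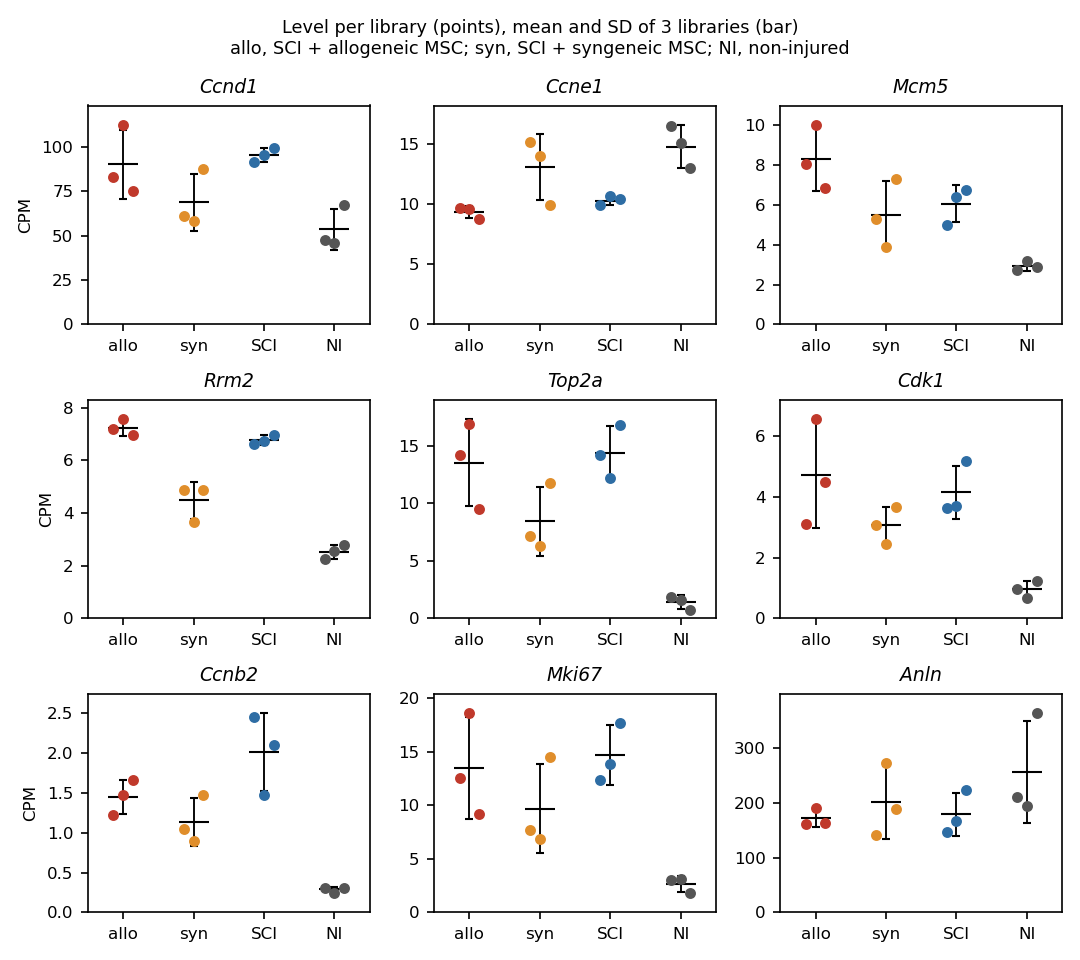
CPM per library (vertical axis, linear from 0) of 9 genes with allogeneic MSC, syngeneic MSC, SCI alone and in non-injured cord (left to right), each point a library, with the mean and SD of 3. Top2a, Cdk1, Ccnb2 and Mki67 are low in the 3 non-injured libraries and higher in the 9 others, Ccne1 has its lowest means with allogeneic MSC and SCI alone, and Anln is highest in non-injured replicate 3.

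Among the 6 mitotic kinases and checkpoint genes, Bub1, Aurkb and Plk1 were called higher with SCI alone and Bub1b, Aurka and Birc5 were not. Aurkb, the kinase of the chromosomal passenger complex, had 0.778, 2.48 and 1.43 CPM with allogeneic MSC, 0.481, 0.613 and 1.35 CPM with syngeneic MSC and 1.29, 1.81 and 1.59 CPM with SCI alone, against 0.0387, 0.25 and 0.103 CPM in non-injured cord. It rose by the most of the 44 genes, but its non-injured level rests on 7 counts. With SCI alone the log2 fold change was 3.67 (SE 0.64, adjusted p = 0.00206), beside 3.60 (SE 0.65, adjusted p = 0.00215) with allogeneic MSC and 2.68 (SE 0.68) with syngeneic MSC. Birc5, or survivin, of the same complex, had 2.2, 2.03 and 2.4 CPM in the allogeneic MSC libraries, 1.35, 1.8 and 1.67 CPM in the syngeneic MSC libraries, 2.08, 2.47 and 2.21 CPM in the SCI libraries and 1.2, 1.31 and 1.9 CPM in the non-injured libraries. The SCI and allogeneic libraries lay above the non-injured ones, and the syngeneic ones within their range. Birc5 missed the threshold with SCI alone at 0.62 (SE 0.23, adjusted p = 0.0668). It was called there with library totals alone (0.70, adjusted p = 0.035) and without non-injured replicate 3 (0.83, adjusted p = 0.0264).

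Bub1b, the checkpoint protein BUBR1, had 5.38, 5.19 and 5.77 CPM with allogeneic MSC, 3.58, 2.57 and 4.24 CPM with syngeneic MSC and 4.23, 5.6 and 5.5 CPM with SCI alone, against 4.75, 4.75 and 2.56 CPM in non-injured cord. Non-injured replicates 1 and 2 lay among the SCI libraries and replicate 3 below them, while the allogeneic libraries lay above all 3. With SCI alone the log2 fold change of 0.35 (SE 0.26, adjusted p = 0.356) did not pass. Aurka, the kinase of the spindle poles, had 1.75, 3.38 and 1.71 CPM in the allogeneic MSC libraries, 1.7, 2.37 and 2.44 CPM in the syngeneic MSC libraries, 2.76, 2.14 and 2.04 CPM in the SCI libraries and 2.09, 1.62 and 1.85 CPM in the non-injured libraries. Its groups overlapped throughout, with a log2 fold change of 0.31 (SE 0.29, adjusted p = 0.469) for SCI alone. Bub1, which loads checkpoint proteins on kinetochores, had a log2 fold change of 2.78 (SE 0.5, adjusted p = 0.00241), and Plk1, a kinase that acts from mitotic entry to cytokinesis, of 1.34 (SE 0.36, adjusted p = 0.0201). The call of Plk1 was lost without SCI replicate 3 (1.09, adjusted p = 0.0809) and without non-injured replicate 1 (1.33, adjusted p = 0.062) or 2 (1.17, adjusted p = 0.0663).

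Of the 8 genes of the spindle and of cytokinesis, 7 were called higher with SCI alone. Prc1, which bundles the microtubules of the central spindle, had 4.93, 7.67 and 5.63 CPM with allogeneic MSC, 3.76, 3.23 and 6.23 CPM with syngeneic MSC and 6.86, 6.09 and 8.62 CPM with SCI alone, against 1.47, 1.19 and 1.33 CPM in non-injured cord. Each injured library lay above the non-injured ones. The log2 fold change of 2.42 (SE 0.28, adjusted p = 0.000239) was the largest of this group with SCI alone, beside 2.16 (SE 0.29, adjusted p = 0.000317) with allogeneic MSC and 1.70 (SE 0.28) with syngeneic MSC. Kif11, the motor that pushes the spindle poles apart, had 4.35, 6.09 and 4.24 CPM in the allogeneic MSC libraries, 2.8, 3.31 and 4.5 CPM in the syngeneic MSC libraries, 4.84, 3.02 and 5.1 CPM in the SCI libraries and 1.86, 1.87 and 1.28 CPM in the non-injured libraries. It too separated the injured from the non-injured libraries. Kif11 had log2 fold changes of 1.53 (SE 0.28, adjusted p = 0.00239) with allogeneic MSC and 1.07 (SE 0.28) with syngeneic MSC, and 1.37 (SE 0.28, adjusted p = 0.00491) with SCI alone. The syngeneic call of Kif11 (edgeR adjusted p = 0.0487) was lost in 15 of 18 alternatives. The motors Kif20a and Kif23 had log2 fold changes of 1.70 (SE 0.4, adjusted p = 0.00965) and 1.36 (SE 0.29, adjusted p = 0.00651) with SCI alone. The spindle assembly factor Tpx2 had a log2 fold change of 1.37 (SE 0.27, adjusted p = 0.00371) and the microtubule binder Nusap1 of 2.0 (SE 0.39, adjusted p = 0.00383). Hmmr, a spindle and hyaluronan binding protein, was called with SCI alone at 2.06 (SE 0.49, adjusted p = 0.0108) but not with allogeneic MSC at 1.19 (SE 0.52, adjusted p = 0.117), and the difference between those groups was -0.87 (SE 0.47, adjusted p = 1).

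Anln was the 1 gene of the spindle and cytokinesis group that was not called with SCI alone. Anillin, its product, is a scaffold of the cytokinetic ring and is also known as a component of myelin. Anln had 161, 191 and 164 CPM with allogeneic MSC, 141, 272 and 189 CPM with syngeneic MSC and 147, 166 and 223 CPM with SCI alone, against 210.0, 194 and 363 CPM in non-injured cord. Non-injured replicate 3 was the highest and syngeneic replicate 2 came next. The allogeneic libraries lay below all 3 non-injured ones, while those of both other injured groups overlapped them. The log2 fold changes of Anln were below 0 and did not pass the test, at -0.57 (SE 0.28, adjusted p = 0.156) with allogeneic MSC, -0.35 (SE 0.27, adjusted p = 0.532) with syngeneic MSC and -0.52 (SE 0.28, adjusted p = 0.193) with SCI alone. The summed level of 6 markers of oligodendrocytes and myelin was 24130, 31463 and 27999 CPM with allogeneic MSC, 22603, 41933 and 25728 CPM with syngeneic MSC and 26759, 23631 and 32332 CPM with SCI alone, against 40494, 32098 and 77587 CPM in non-injured cord. The library highest in Anln, non-injured replicate 3, was also the highest in these markers, and syngeneic replicate 2 was next in both. The part of myelin in the level of Anln was not tested. Per kilobase of exon, Pcna, Anln and Ccnd1 held the highest mean levels of the 44 genes. Anln had 19, 22.1, 19.7 and 28.2 CPM per kilobase with allogeneic MSC, syngeneic MSC, SCI alone and in non-injured cord. In the same order Pcna had 23, 20, 21.7 and 18.4 CPM per kilobase, Ccnd1 19.1, 14.6, 20.3 and 11.4 and Mcm4 6.03, 5.68, 5.7 and 3.93. Mcm4 was next after these in each injured group, while in non-injured cord Ccne1 was, at 5.57 CPM per kilobase.

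**Figure D4:**
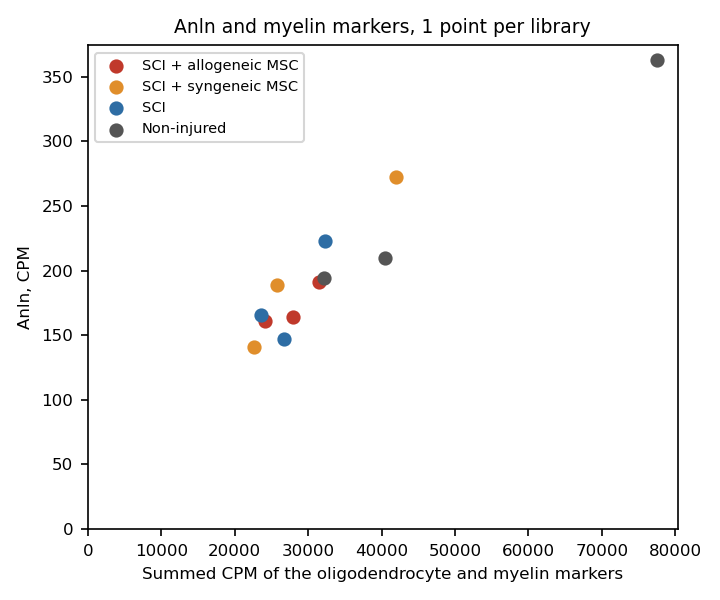
CPM of Anln (vertical axis) against the summed CPM of 6 oligodendrocyte and myelin markers (horizontal axis), 1 point per library, coloured by group. Non-injured replicate 3 lies at the upper right (77587 and 363 CPM) and syngeneic replicate 2 is next (41933 and 272 CPM).

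The 4 genes of the centromere and chromosome surface were called higher with SCI alone, and so were both genes of the anaphase ligase. Mki67, the coat of mitotic chromosomes known as the Ki-67 marker of cycling cells, had 12.6, 18.6 and 9.18 CPM with allogeneic MSC, 7.69, 6.9 and 14.5 CPM with syngeneic MSC and 12.4, 13.9 and 17.7 CPM with SCI alone, against 3.05, 3.12 and 1.85 CPM in non-injured cord. Its injured libraries all lay above the non-injured ones, with syngeneic replicates 1 and 2 and allogeneic replicate 3 the lowest of the injured. Among the 4, the log2 fold change of 2.45 (SE 0.35, adjusted p = 0.000666) with SCI alone was the largest, beside 2.31 (SE 0.35, adjusted p = 0.000759) with allogeneic MSC and 1.85 (SE 0.35) with syngeneic MSC. Cenpf, a large kinetochore protein of G2 and mitosis, had 4.47, 4.96 and 2.72 CPM in the allogeneic MSC libraries, 2.75, 2.57 and 4.69 CPM in the syngeneic MSC libraries, 5.15, 4.12 and 6.69 CPM in the SCI libraries and 1.24, 0.812 and 1.08 CPM in the non-injured libraries. There was no overlap with non-injured cord. Cenpf had log2 fold changes of 1.91 (SE 0.34, adjusted p = 0.00177) with allogeneic MSC and 1.64 (SE 0.33) with syngeneic MSC, and 2.33 (SE 0.33, adjusted p = 0.00064) with SCI alone. Cenpa, the histone variant that marks centromeres, had 2.92, 4.51 and 3.83 CPM with allogeneic MSC, 2.14, 1.72 and 3.28 CPM with syngeneic MSC and 3.19, 4.23 and 3.57 CPM with SCI alone, against 1.2, 0.999 and 1.64 CPM in non-injured cord. It rose the least of these genes with SCI alone, at 1.51 (SE 0.29, adjusted p = 0.0035), and its injured libraries lay above the non-injured ones, syngeneic replicate 2 narrowly. Cenpe, a kinetochore motor, had a log2 fold change of 1.56 (SE 0.24, adjusted p = 0.00102) with SCI alone.

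Ube2c, the ubiquitin carrier of the anaphase-promoting complex, had 1.82, 3.27 and 1.43 CPM with allogeneic MSC, 0.962, 1.59 and 1.41 CPM with syngeneic MSC and 2.94, 1.65 and 2.78 CPM with SCI alone, against 0.464, 0.25 and 0.256 CPM in non-injured cord. The non-injured libraries were all far lower than the injured ones. Ube2c had log2 fold changes of 2.61 (SE 0.43, adjusted p = 0.00122) with allogeneic MSC and 1.96 (SE 0.43) with syngeneic MSC, and 2.85 (SE 0.42, adjusted p = 0.000804) with SCI alone. Cdc20, the activator of the same complex, had 2.14, 2.14 and 2.91 CPM in the allogeneic MSC libraries, 1.7, 1.39 and 2.7 CPM in the syngeneic MSC libraries, 3.31, 2.69 and 2.55 CPM in the SCI libraries and 0.618, 0.687 and 0.667 CPM in the non-injured libraries. Injured libraries stood above non-injured ones without overlap. Cdc20 had log2 fold changes of 1.88 (SE 0.29, adjusted p = 0.000864) with allogeneic MSC and 1.53 (SE 0.29) with syngeneic MSC, and 2.11 (SE 0.29, adjusted p = 0.000513) with SCI alone.

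The next question was whether transplanted cells altered these levels in the injured cord. In syngeneic MSC against SCI alone, 0 of the 44 genes were called higher (0.00605% of all genes tested) and 0 lower (0.0303%) by edgeR. The DESeq2 Wald test and limma-voom also called 0, and 14 genes (31.8%) had an unadjusted p below 0.05, against 13.5% of all genes tested. The log2 fold change was below 0 for 40 of the 44 genes, with a median of -0.48, against 0.00 and 49.4% below 0 over all genes tested. In 14 genes each syngeneic library lay below each SCI library, which held for 11.5% of all genes tested. The genes with the smallest p were Ccna2, with a log2 fold change of -0.87 (SE 0.22, adjusted p = 0.278) and Rrm2 of -0.60 (SE 0.16, adjusted p = 0.278), whose values per library are given above. Mki67 had a log2 fold change of -0.61 (SE 0.32, adjusted p = 0.418) and Top2a of -0.79 (SE 0.31, adjusted p = 0.328). By role the median ran from 0.22 for G1 control and -0.14 for the replication fork to -0.78 for mitotic entry.

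In allogeneic MSC against SCI alone, 0 of the 44 genes were called higher (0.169% of all genes tested) and 0 lower (0.0182%) by edgeR, 0 by the DESeq2 Wald test and 0 by limma-voom, and 0 had an unadjusted p below 0.05. The median log2 fold change was -0.04, from -0.87 for Hmmr to 0.49 for Mcm3. The sign of this median turned with single libraries: it was 0.04 without allogeneic replicate 1, 0.05 without allogeneic replicate 3 and 0.06 without SCI replicate 3, and -0.16 without allogeneic replicate 2. Of the 8 replication fork genes, 7 had a log2 fold change above 0, at a median of 0.25, and of the 4 genes of mitotic entry 3 had one below 0, at a median of -0.19. Over all genes tested, 50.4% lay above 0. For 24 of the 44 genes the sign turned in at least 1 alternative. Mcm5 had a log2 fold change of 0.44 (SE 0.23, adjusted p = 1), Cdk1 of 0.16 (SE 0.29, adjusted p = 1) and Mki67 of -0.14 (SE 0.32, adjusted p = 1). These p-values do not show that the levels were equal.

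In allogeneic MSC against syngeneic MSC, 0 of the 44 genes were called higher (0.593% of all genes tested) and 0 lower (0.0182%) by edgeR and by limma-voom, while 12 (27.3%) had an unadjusted p below 0.05, against 14.4% of all genes tested. The DESeq2 Wald test called 1 gene higher, Rrm2 (0.69, adjusted p = 0.0164), which edgeR gave as 0.69 (SE 0.16, adjusted p = 0.101). The DESeq2 Wald test called 2.02% of all genes tested higher, so that its count of 1 lies near the background. The log2 fold change was above 0 for 40 genes, with a median of 0.43, against -0.02 and 47.3% above 0 over all genes tested. In 5 genes each allogeneic library lay above each syngeneic library (Foxm1, Rrm2, Ccna2, Bub1b and Birc5), which held for 7.03% of all genes tested. Foxm1 had a log2 fold change of 0.57 (SE 0.24, adjusted p = 0.311), Mcm3 of 0.71 (SE 0.26, adjusted p = 0.276), Ccna2 of 0.67 (SE 0.22, adjusted p = 0.252) and Ccne1, in the other direction, of -0.49 (SE 0.16, adjusted p = 0.24). Comparisons with syngeneic MSC share those 3 libraries, so the values for SCI alone and for allogeneic MSC against them are not independent.

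Single libraries weighed on these comparisons. The mean log2 level of the 44 genes above the non-injured mean was 1.09, 1.53 and 1.04 with allogeneic MSC, 0.70, 0.69 and 1.13 with syngeneic MSC and 1.21, 1.16 and 1.40 with SCI alone, against 0.00, 0.01 and -0.01 in non-injured cord. Syngeneic replicate 3 was the highest of its group in 34 of the 44 genes, and allogeneic replicate 2, the library of lowest depth, in 36. Without syngeneic replicate 3, 3 of the 44 genes were called lower than with SCI alone, while 4.76% of all genes tested were, so that the count lies near the background. They were Rrm2 (-0.70, adjusted p = 0.0446), Ccna2 (-1.06, adjusted p = 0.0329) and Prc1 (-1.07, adjusted p = 0.0306). Without it, 4 of the 44 were called higher with allogeneic MSC than with syngeneic MSC, and 6.73% of all genes tested were, again a count near the background. These were Mcm3 (1.07, adjusted p = 0.0245), Mcm5 (0.89, adjusted p = 0.0365), Mcm6 (0.83, adjusted p = 0.0154) and Rrm2 (0.80, adjusted p = 0.0213). Ccne1 was then called lower (-0.60, adjusted p = 0.0263), as were 0.255% of all genes tested. Without allogeneic replicate 2, the median of allogeneic MSC against syngeneic MSC was 0.26. The 19 genes called higher with syngeneic MSC than in non-injured cord became 6 without syngeneic replicate 3 and 12 without SCI replicate 3. They became 7, 9 and 9 without non-injured replicates 1, 2 and 3. The share of all genes tested called higher in this comparison fell too. It was 4.92% with all libraries, 2.54% without syngeneic replicate 3 and 3.75% without SCI replicate 3. Without non-injured replicates 1, 2 and 3 it was 2.04%, 2.53% and 3.96%. Of the 19 genes Top2a was called in all 18 alternatives, and each of the others lost its call in at least 1.

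**Figure D5:**
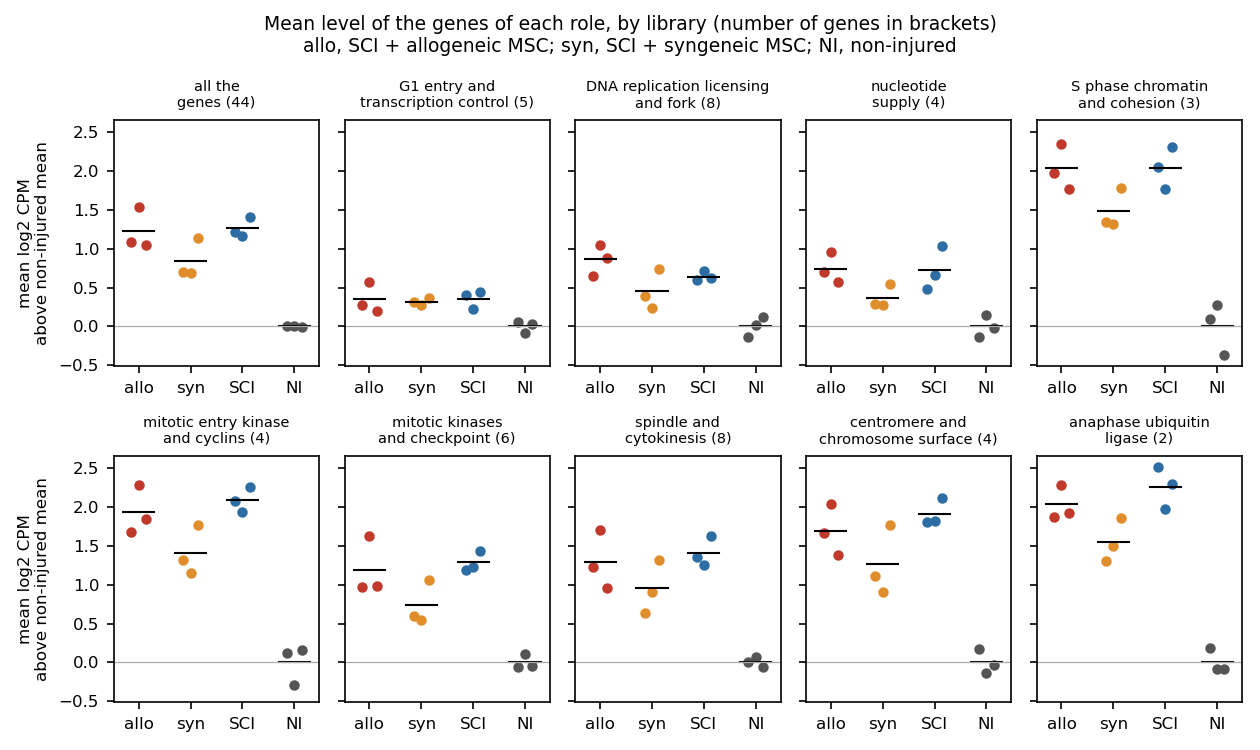
Mean log2 CPM above the mean of the non-injured libraries (vertical axis) of all 44 genes and of each role group, 1 point per library, with bars for the mean of 3, in the order allogeneic MSC, syngeneic MSC, SCI alone and non-injured. The highest syngeneic point in the panel of all genes is replicate 3 at 1.13, and the group means of the injured libraries are lowest in the G1 panel, at 0.35, 0.32 and 0.35, although single syngeneic libraries are lower in the panels of the replication fork and of nucleotide supply.

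Markers of microglia, blood monocytes and macrophages, astrocytes, and T and NK cells were higher in injured than in non-injured libraries, while the sums for oligodendrocyte precursors overlapped in all groups. The summed level of 10 microglial markers was 1518 to 2051 CPM with allogeneic MSC, 764 to 1592 CPM with syngeneic MSC and 1523 to 1785 CPM with SCI alone, against 317 to 456 CPM in non-injured cord. All 10 were called higher with SCI alone, where 16.6% of all genes tested were. For 10 markers of blood monocytes and macrophages, the sums were 793 to 1632, 250 to 1256 and 873 to 1315 CPM in the same injured groups, against 36 to 46 CPM in non-injured cord, and 9 were called higher with SCI alone. Syngeneic replicate 3 held the highest sum of its group for both lists, at 1592 and 1256 CPM. Its sums for astrocytes, T and NK cells, oligodendrocyte precursors, ependyma and fibroblasts were also the highest of its group, unlike those for neurons and myelin. Allogeneic replicate 2 likewise held the highest sum of its group for most lists, microglia, monocytes and macrophages, astrocytes and fibroblasts among them, but not for ependyma or neurons. Astrocyte markers summed to 9319 to 12504, 6187 to 9884 and 9658 to 11177 CPM in the injured groups, against 2628 to 4223 CPM in non-injured cord, and 8 of 8 were called higher with SCI alone. Precursor markers of oligodendrocytes summed to 695 to 777, 619 to 746 and 733 to 810 CPM, against 646 to 855 CPM, with 4 of 8 called higher. Markers of T and NK cells summed to 54.6 to 105 CPM with allogeneic MSC, against 4 to 7 CPM with syngeneic MSC. Of these markers, 9 of 10 were called higher with allogeneic than with syngeneic MSC, as were 0.593% of all genes tested. They summed to 7.65 to 9.93 CPM with SCI alone, against 2.56 to 2.94 CPM in non-injured cord, where Cd3d and Cd8a had 0 counts. Fibroblast and stromal markers, which the transplanted cells may also carry, summed to 933 to 1973, 739 to 1484 and 1461 to 2077 CPM in the injured groups, against 797 to 831 CPM in non-injured cord, with the syngeneic sums on both sides of the non-injured range. Of these 10 markers, 7 were called higher with SCI alone and 1 lower (10%, near the 9.26% of all genes tested). Endothelial markers summed to 295 to 336, 253 to 285 and 349 to 432 CPM, against 286 to 417 CPM in non-injured cord. With SCI alone 1 of 7 was called higher (14.3%, near the 16.6% of all genes tested). Ependymal markers summed to 135 to 160, 127 to 152 and 157 to 168 CPM in the injured groups, against 102 to 131 CPM in non-injured cord, and 3 of 7 were called higher with SCI alone. The part of these cells in the levels of the 44 genes was not tested.

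Other genes of the cycle were read from lists of their own. Of 39 tested replication genes, 6 (15.4%) were called higher and 1, Dut (2.56%), lower with SCI alone, at a median log2 fold change of 0.15. These shares are no higher than the 16.6% and 9.26% of all genes tested. Dtl, which targets CDT1 for destruction, averaged 1.60 ± 0.335 CPM with SCI alone and 0.474 ± 0.112 CPM in non-injured cord (SD, n = 3 each). Its log2 fold change of 1.77 (SE 0.31, edgeR adjusted p = 0.00217) had the smallest p of this list. Next came Clspn, an adaptor of the replication checkpoint (1.63, SE 0.34, edgeR adjusted p = 0.00577), and Cdt1, a licensing factor (0.87, SE 0.22, edgeR adjusted p = 0.0156). The call of Cdt1 was lost without SCI replicate 2 (0.67, adjusted p = 0.083) or non-injured replicate 3 (0.73, adjusted p = 0.0532). The call of Dut, which keeps uracil out of DNA, was lost with library totals alone (-0.40, adjusted p = 0.0574), without SCI replicate 1 (-0.47, adjusted p = 0.0742), 2 (-0.45, adjusted p = 0.0967) or 3 (-0.45, adjusted p = 0.0792), and without non-injured replicate 2 (-0.42, adjusted p = 0.0884). Of 55 tested mitotic genes outside the 44, 30 (54.5%) were called higher with SCI alone, at a median of 0.95. In that list 0 genes were called lower by edgeR, by the DESeq2 Wald test and by limma-voom, and 35 had an unadjusted p below 0.05 in either direction. Knl1, the scaffold of the kinetochore, averaged 2.11 ± 0.425 CPM with SCI alone and 0.224 ± 0.0805 CPM in non-injured cord (SD, n = 3 each), a log2 fold change of 3.26 (SE 0.34, edgeR adjusted p = 0.000157). The kinase Pbk had a log2 fold change of 2.80 (SE 0.36, edgeR adjusted p = 0.000358) and Ect2, which sets the site of cleavage, of 1.33 (SE 0.20, edgeR adjusted p = 0.00078). Of 20 tested genes of G1 kinases, their partners and the E2F and retinoblastoma families, 9 (45%) were called higher at a median of 0.51. Here 0 were called lower by edgeR and by limma-voom and 1 by the DESeq2 Wald test, and 13 had an unadjusted p below 0.05 in either direction. They included the growth regulator Myc (2.04, SE 0.21, edgeR adjusted p = 0.000161), the kinase Cdk6 (1.59, SE 0.24, edgeR adjusted p = 0.000926) and the D cyclin Ccnd2 (1.47, SE 0.24, edgeR adjusted p = 0.00161).

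In the transplant comparisons, edgeR and limma-voom called 0 genes of these lists. Unadjusted p-values below 0.05 numbered 3, 8 and 4 for the replication, mitotic and G1 lists in syngeneic MSC against SCI alone, 2, 0 and 0 in allogeneic MSC against SCI alone, and 6, 6 and 7 in allogeneic MSC against syngeneic MSC. As shares of the lists these were 7.69%, 14.5% and 20% in syngeneic MSC against SCI alone, beside 13.5% of all genes tested, and 15.4%, 10.9% and 35% in allogeneic MSC against syngeneic MSC, beside 14.4%. In allogeneic MSC against SCI alone 2.94% of all genes tested had one. By these shares of small p-values, the replication and mitotic lists lay near or below the background in the comparisons with syngeneic MSC. Of the replication, mitotic and G1 lists, 66.7%, 83.6% and 70% had log2 fold changes below 0 in syngeneic MSC against SCI alone. Over all genes tested 49.4% did. The medians were -0.08, -0.28 and -0.23. In allogeneic MSC against syngeneic MSC, 71.8%, 83.6% and 85% lay above 0, beside 47.3% of all genes tested, with medians of 0.17, 0.34 and 0.30. The DESeq2 Wald test called Myc lower with syngeneic MSC than with SCI alone (-1.02, adjusted p = 0.00212), and E2f2 (1.03, adjusted p = 0.0116) and Cdk6 (0.83, adjusted p = 0.0399) higher with allogeneic MSC than with syngeneic MSC. It called no other gene of these lists in the transplant comparisons.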

How the data were processed

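Raw read counts per gene, deposited by the authors as 1 table of 12 mouse spinal cord libraries, were used as given. Per the labels' protocols, libraries were made with a stranded, polyA-selected mRNA kit. Per the submitters' processing notes, the tools were STAR 2.5.1 and featureCounts 1.5.1, with StringTie 1.3.3, Picard, Trim Galore 0.4.1 and FastQC 0.11.5, and the build was GRCm38; no order or role is given. The strand setting and the annotation release are not given there. Counts of reads without molecular identifiers carry counting error beside the spread between samples.

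Genes passed edgeR's filter (minimum count 10, minimum total 15), and 16527 of 46078 were tested with edgeR 4.0.16 in R 4.3.3: TMM factors, a robust quasi-likelihood fit over all 12 libraries with a mean per group (8 residual degrees of freedom), and Benjamini-Hochberg adjustment over all genes tested. Log2 CPM used a prior count of 2. Exon lengths come from GENCODE (GRCm38), promoters from RefSeq (GRCm38.p6). Alternatives were DESeq2 1.42.0 (size factors and Wald test), limma-voom 3.58.1, library totals alone, no filter, only the 2 groups compared, and leaving out each library. The test code was checked on simulated data. The 44 genes, the other gene lists and the rules for naming genes were chosen with earlier results of these data known. Values per library are given for 20 genes fixed by role, for genes called between transplanted and other injured groups, and for those with the largest and smallest change of each role, and of the other lists the 3 genes with the smallest p are named.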

Additional observations from a re-analysis of the deposited data

How the results depend on the processing

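Repeats under 18 alternatives were counted gene by gene for all 44 genes in SCI against non-injured cord, for the 32 called with allogeneic MSC and for the 19 called with syngeneic MSC against it. They kept direction and side of the threshold in 1537 cases, lost a call in 159 (105 of them in syngeneic MSC against non-injured cord, 28 in allogeneic MSC against it and 26 in SCI alone against it), gained one in 11 and turned in sign in 3. These 3 turns were Ccne2 in SCI against non-injured cord, at -0.02 as reported, 0.04 with library totals alone, and between -0.15 and 0.08 when a library was left out. The 1 gene called lower with SCI alone than in non-injured cord, Ccne1, became 0 with library totals alone and ranged from 0 to 1 when a library was left out. The 19 genes called higher with syngeneic MSC than in non-injured cord became 12 with limma-voom, 1 with only the 2 groups compared, and 6 to 23 when a library was left out. Of all genes tested, 4.92% were called higher there as reported, 3.44% with limma-voom and 1.03% with only the 2 groups compared. The shares were 2.54% and 8.18% in the fits that gave 6 and 23, those without syngeneic replicate 3 and 2. No gene called as reported turned in sign. Among genes not called, the sign turned in at least 1 alternative for 6 in syngeneic MSC against SCI alone, 24 in allogeneic MSC against SCI alone, 6 in allogeneic against syngeneic MSC, and 2 with allogeneic and 3 with syngeneic MSC against non-injured cord. In syngeneic MSC against SCI alone, genes called lower numbered 0 to 3 when a library was left out, and the 3 fell in the fit without syngeneic replicate 3, where 4.76% of all genes tested were called lower. In allogeneic MSC against syngeneic MSC, 1 gene was called higher with the DESeq2 Wald test, where 2.02% of all genes tested were. When a library was left out, genes called higher numbered 0 to 4 and genes called lower 0 to 1. The 4 higher and the 1 lower fell in the fit without syngeneic replicate 3, where 6.73% and 0.255% of all genes tested were called. No paired analysis was made because the labels name no pairing of samples between groups. The replicate numbers used here count the samples within a group and tie none between groups. With library totals alone the median log2 fold change of all genes tested in SCI against non-injured cord was 0.071. Depth limits the lowest genes: 11 of the 44 had under 50 counts over the non-injured libraries.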

Other observations

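Inhibitors of the cycle and targets of p53 moved in both directions with injury. Of 13 tested genes, 4 were called higher with SCI alone than in non-injured cord (Btg2, Cdkn2c, Trp53 and Ccng1) and 2 lower (Cdkn1c and Cdkn2d), at a median log2 fold change of 0.44. These were 30.8% and 15.4% of the list, against 16.6% and 9.26% of all genes tested. Btg2, an antiproliferative gene of the early response, had 17.4, 20.3 and 21.9 CPM with allogeneic MSC, 15.8, 10.7 and 16.7 CPM with syngeneic MSC and 32.6, 28.9 and 30.8 CPM with SCI alone, against 11.9, 14.1 and 18.2 CPM in non-injured cord. The SCI libraries lay above all others. The log2 fold change of Btg2 was 1.07 (SE 0.19, edgeR adjusted p = 0.00216) with SCI alone over non-injured cord. In syngeneic MSC against SCI alone it was called lower by the DESeq2 Wald test (-1.09, adjusted p = 0.00011) and by neither edgeR nor limma-voom. Cdkn2c, an inhibitor of the D cyclin kinases, averaged 6.19 ± 0.529 CPM with SCI alone and 1.95 ± 0.674 CPM in non-injured cord (SD, n = 3 each), a log2 fold change of 1.65 (SE 0.35, edgeR adjusted p = 0.00579). Cdkn1c, the inhibitor p57, averaged 12.1 ± 2.38 CPM with SCI alone and 39.5 ± 27.2 CPM in non-injured cord (SD, n = 3 each). Its log2 fold change of -1.70 (SE 0.46, edgeR adjusted p = 0.0202) became -0.99 (adjusted p = 0.0714) without non-injured replicate 3, and the call was also lost without SCI replicate 1 (-1.69, adjusted p = 0.0607) or 2 (-1.57, adjusted p = 0.0842) and with no filter on low counts (-1.75, adjusted p = 0.0633). Cdkn1a, the inhibitor p21 and a p53 target, was not called with SCI alone (-0.17, SE 0.34, edgeR adjusted p = 0.753). Calls of Trp53, Ccng1 and Cdkn2d were each lost in at least 5 of 18 alternatives, among them the fits without SCI replicate 1 or 2 and without non-injured replicate 1 or 2. In allogeneic MSC against non-injured cord 3 of the 13 genes were called higher (23.1%, against 16.7% of all genes tested). By edgeR and limma-voom 0 were called lower (8.17% of all genes tested by edgeR), and by the DESeq2 Wald test 1 was.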
